A study of Mus musculus with 16 samples.

Results

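The zone difference in the anti-CD40 response is the change after anti-CD40 in light zone (LZ) germinal centre B cells minus the change in dark zone (DZ) germinal centre B cells, on the log2 scale, gene by gene. It was estimated in 1 model from all 16 of the 16 libraries of the series, so no library was left out and none was selected on a measured value. The cells came from lymph nodes of wild-type (WT) mice 4 h after an antibody had been given in vivo. The 4 groups of 4 libraries were LZ cells after the isotype control antibody, LZ cells after anti-CD40, DZ cells after the isotype control and DZ cells after anti-CD40. The antibody clone and dose, the age of the mice, how the germinal centres were raised and the gates used to sort the zones are not in the labels. The labels also do not say whether the 4 numbered libraries of a group came from separate mice, so each p-value below measures the spread between these samples, which may be in part technical. Because the libraries are bulk samples, fewer cells of a type and less RNA per cell cannot be told apart.

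CD40 is the receptor on B cells for CD40 ligand of T follicular helper cells, and an activating antibody against it can replace that ligand. Its signal runs through TRAF adaptors to NF-kB and induces Myc, which drives ribosome assembly, nucleotide synthesis and growth. In the germinal centre, LZ cells meet T cells and receive this help, whereas DZ cells, which depend on Foxo1 and express the chemokine receptor Cxcr4, divide and mutate their antibody genes. The comparison asks whether the same signal moved the transcriptome by the same factor in both zones.

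The counts are of unique molecular identifiers (UMI), which mark single reverse-transcribed molecules at the 3′ end. The libraries held 493131 to 1473415 UMI in 8718 to 9353 detected genes, and replicates of a group differed by more than counting error (chi-square per degree of freedom 1.65 to 10.1). Levels are given as CPM (UMI counts divided by the library total and put on a common scale with TMM factors), and values with ± are the mean and SD of 4 libraries. A gene was tested if it passed the low-count filter, which left 6824 of 9443 genes, and it passed at an edgeR quasi-likelihood p under 0.05 after Benjamini-Hochberg adjustment over those 6824 genes. A positive difference of changes means that the log2 change in the LZ was the greater one, and a negative one that it was the smaller or more negative one. Counting intervals and detection limits below cover counting error only.

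A single gene, Cacna1i, passed the test, 1 of 6824 (0.0147%), with a change in the LZ that was more negative than that in the DZ. No gene passed with a greater change in the LZ. The count depends on the model: with the library number as a block, 107 genes passed, 39 with the greater and 68 with the smaller change in the LZ. The values below are from the fit without that block unless stated. At an unadjusted p under 0.05 there were 586 genes (8.59%), of which 259 (3.80%) had the greater and 327 (4.79%) the smaller change in the LZ. Over all genes tested the median difference of changes was close to 0, and 3411 genes were positive and 3413 negative. The median standard error of a difference was 0.42 on the log2 scale. Data were also simulated from these libraries, with each library drawn independently and no effect shared by libraries of one number. There the same test recovered on average 10.6% (5 to 16% over 20 sets) of 2-fold differences of changes and 64.6% (57 to 76%) of 4-fold differences. A gene that did not pass is therefore given with its interval or standard error.

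The 586 genes at an unadjusted p under 0.05 were unevenly spread over the combinations of direction and zone. In 551 of them (94.0%) the fitted change was larger in size in the LZ, against 4880 of all 6824 genes tested (71.5%). In 301 the larger change was a negative one in the LZ, and in 250 it was a positive one in the LZ. A larger positive change in the DZ was found in 26 and a larger negative one in 9. The fitted changes had opposite signs in 194 of the 586. This is a description of genes picked by their own p-value. Depth also differed: all isotype DZ libraries (767736 to 1473415 UMI) were deeper than all isotype LZ libraries (527241 to 718158 UMI), while the treated ranges overlapped. The part of depth in the shares with the larger change in the LZ was not tested. Of the 586, 5 had the opposite sign when the changes were taken as differences in CPM, against 420 of all genes tested (6.16%).

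**Figure D1:**
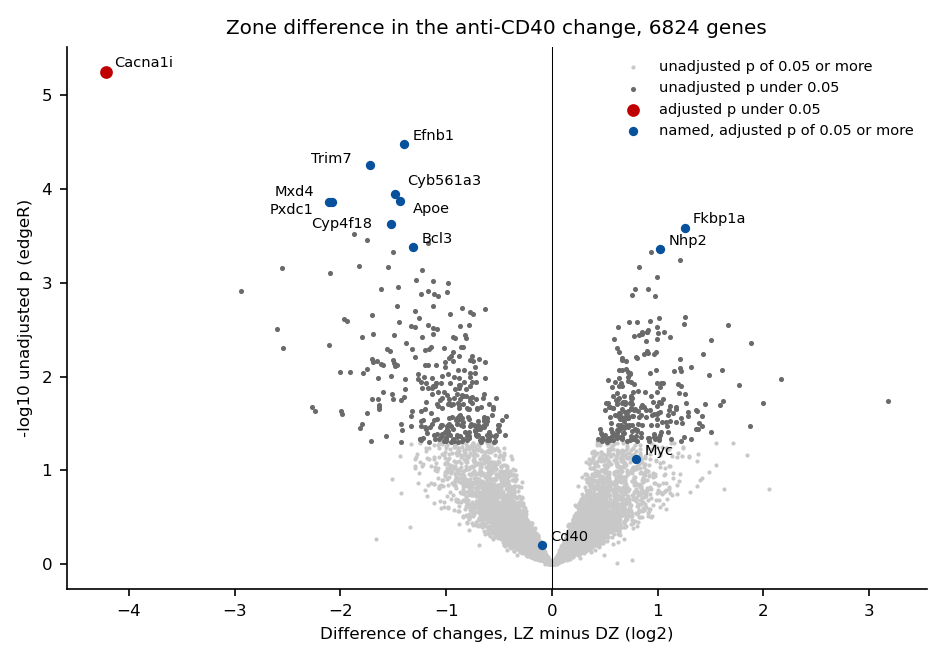
Difference of changes of each of 6824 genes (x axis, log2, LZ change minus DZ change) against the -log10 of its unadjusted edgeR p (y axis). Cacna1i, in red at -4.22, is the single gene with an adjusted p under 0.05. Myc lies at 0.80 and Cd40 at -0.09, both among the genes that did not pass.

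Cacna1i (ENSMUSG00000022416.15, chr15:80287238-80398279 on the plus strand of GRCm38) encodes the pore subunit of a T-type voltage-gated calcium channel. Under the isotype control the 4 LZ libraries held 19, 14, 10 and 17 UMI (25.5, 22.3, 18.6 and 29.98 CPM), and after anti-CD40 they held 0, 0, 2 and 0 UMI (0, 0, 2.25 and 0 CPM). The DZ libraries held 62, 38, 41 and 41 UMI under the isotype control (42.9, 38.5, 41.1 and 51.5 CPM) and 28, 41, 27 and 12 UMI after anti-CD40 (21.9, 26.7, 43.4 and 24.6 CPM). The LZ groups did not overlap, with 3 of 4 treated libraries at 0, whereas in the DZ the highest treated library lay above 3 of the 4 control libraries. The fitted difference of changes was -4.22 (SE 0.68, 95% interval -5.65 to -2.79, adjusted p = 0.0388). Because 3 libraries were at 0, that fitted value depends on how zeros are handled. Summed over a group there were 60 and 2 UMI in the LZ and 182 and 108 in the DZ. The ratio of treated to control was 21.5 times higher in the DZ than in the LZ after scaling for depth, with a 95% counting interval (conditional exact) of 5.47 to 184. A count of 0 in those 3 libraries allows 4.81, 4.73 and 4.75 CPM (3 counts of each library).

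The call on Cacna1i was not stable. It was lost in 13 of the 16 fits that each left out 1 library, with adjusted p between 0.0529 and 0.199, and kept only without anti-CD40 LZ library 3, isotype DZ library 4 or anti-CD40 DZ library 1. The difference stayed negative in all 16 (-6.74 to -3.91), and its most extreme value, -6.74, came without anti-CD40 LZ library 3, which holds both of the treated UMI. The count of calls was 0 to 2 over those fits. DESeq2 called 37 genes, 13 with the greater and 24 with the smaller change in the LZ, and gave Cacna1i no adjusted p (unadjusted p 2.97e-05). No CACGTG motif was found in its promoter window, whose sequence is given further below with that of 2 other genes.

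The next 8 genes by p-value, which had an adjusted p under 0.20 and are named after their values were seen, did not pass in the main fit. All 8 passed with the library number as a block in the model. Of these, 7 had the more negative change in the LZ and 1, Fkbp1a, the more positive one. DESeq2 in place of edgeR gave no adjusted p to 3440 of the 6824 genes, Mxd4 among them, and the other 7 of the 8 passed. The levels of the 8 genes are given by library or as group means.

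Efnb1 encodes ephrin-B1, a membrane ligand of Eph receptors and, in mouse, a surface marker of germinal centre B cells. Its LZ levels were 164, 191, 224 and 209.9 CPM under the isotype control and 36.9, 34.7, 45.1 and 45.9 CPM after anti-CD40. Its DZ levels were 206, 184, 193 and 234 CPM and 87.5, 97, 140.0 and 129 CPM, respectively. The treated libraries lay below all control libraries in both zones, and the gap was wider in the LZ, while the 2 control groups overlapped. Ephrin-B1 RNA had a difference of changes of -1.40 (SE 0.26, 95% interval -1.94 to -0.85, adjusted p = 0.113), and also passed with upper quartile in place of TMM factors. Mxd4, which encodes a partner of Max that competes with Myc for DNA, had LZ levels of 25.5, 35, 39.2 and 28.2 CPM and, after anti-CD40, 6.41, 3.15, 6.76 and 4.75 CPM. In the DZ they were 20.1, 34.4, 30.04 and 23.9 CPM and 23.4, 15.6, 16.1 and 26.6 CPM. The groups were apart in the LZ and overlapped in the DZ. For Mxd4 the difference of changes was -2.11 (SE 0.45, 95% interval -3.04 to -1.18, adjusted p = 0.136).

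Trim7, a gene for a ubiquitin ligase of the tripartite motif family, showed the same layout. In LZ libraries Trim7 was at 124, 93.9, 123 and 131 CPM under the isotype control and 44.9, 20.5, 45.1 and 34.8 CPM after anti-CD40. In the DZ it was at 78.9, 42.6, 55.1 and 61.6 CPM and 60.2, 63.1, 69.2 and 53.3 CPM. No LZ library after anti-CD40 reached a control LZ library, whereas the treated DZ libraries lay within the range of the control DZ libraries. This gave Trim7 a difference of changes of -1.72 (SE 0.34, 95% interval -2.42 to -1.02, adjusted p = 0.128). Pxdc1 had mean levels of 126 ± 16.9 and 13.5 ± 9.43 CPM in the LZ and of 76.4 ± 14.8 and 37.8 ± 11.9 CPM in the DZ. Here the groups were apart in both zones, and the difference of changes was -2.08 (SE 0.44, 95% interval -3.00 to -1.16, adjusted p = 0.136). Without anti-CD40 LZ library 3 it was -2.73 with an adjusted p of 0.00842. Cyp4f18, a cytochrome P450 that in mouse inactivates leukotriene B4, went from 133 ± 39.9 to 37.6 ± 11.3 CPM in the LZ and from 164 ± 32.3 to 136 ± 20.05 CPM in the DZ, a difference of -1.53 (SE 0.34, adjusted p = 0.197).

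Cyb561a3, a gene of the cytochrome b561 family of membrane electron carriers, differed from these in that its levels lay in opposite directions in the zones. The LZ levels were 125, 108, 117 and 182 CPM under the isotype control and 99.4, 93, 85.7 and 95 CPM after anti-CD40. The DZ levels were 60.2, 60.8, 46.1 and 84.2 CPM and 89.9, 128, 119 and 159.8 CPM. All treated DZ libraries were above all control DZ libraries, and all treated LZ libraries were below all control LZ libraries. Subtracting the changes gave -1.49 (SE 0.31, 95% interval -2.13 to -0.84, adjusted p = 0.136). Fkbp1a, which encodes the binding protein of rapamycin and FK506, lay on the other side. Its LZ levels were 141, 207, 198 and 102 CPM and, after anti-CD40, 330.3, 295, 337 and 304 CPM, and its DZ levels were 242, 287, 266 and 196 CPM and 238, 201, 214 and 156 CPM. The groups were apart in the LZ and overlapped in the DZ. Fkbp1a had a difference of changes of 1.25 (SE 0.28, 95% interval 0.67 to 1.84, adjusted p = 0.197).

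**Figure D2:**
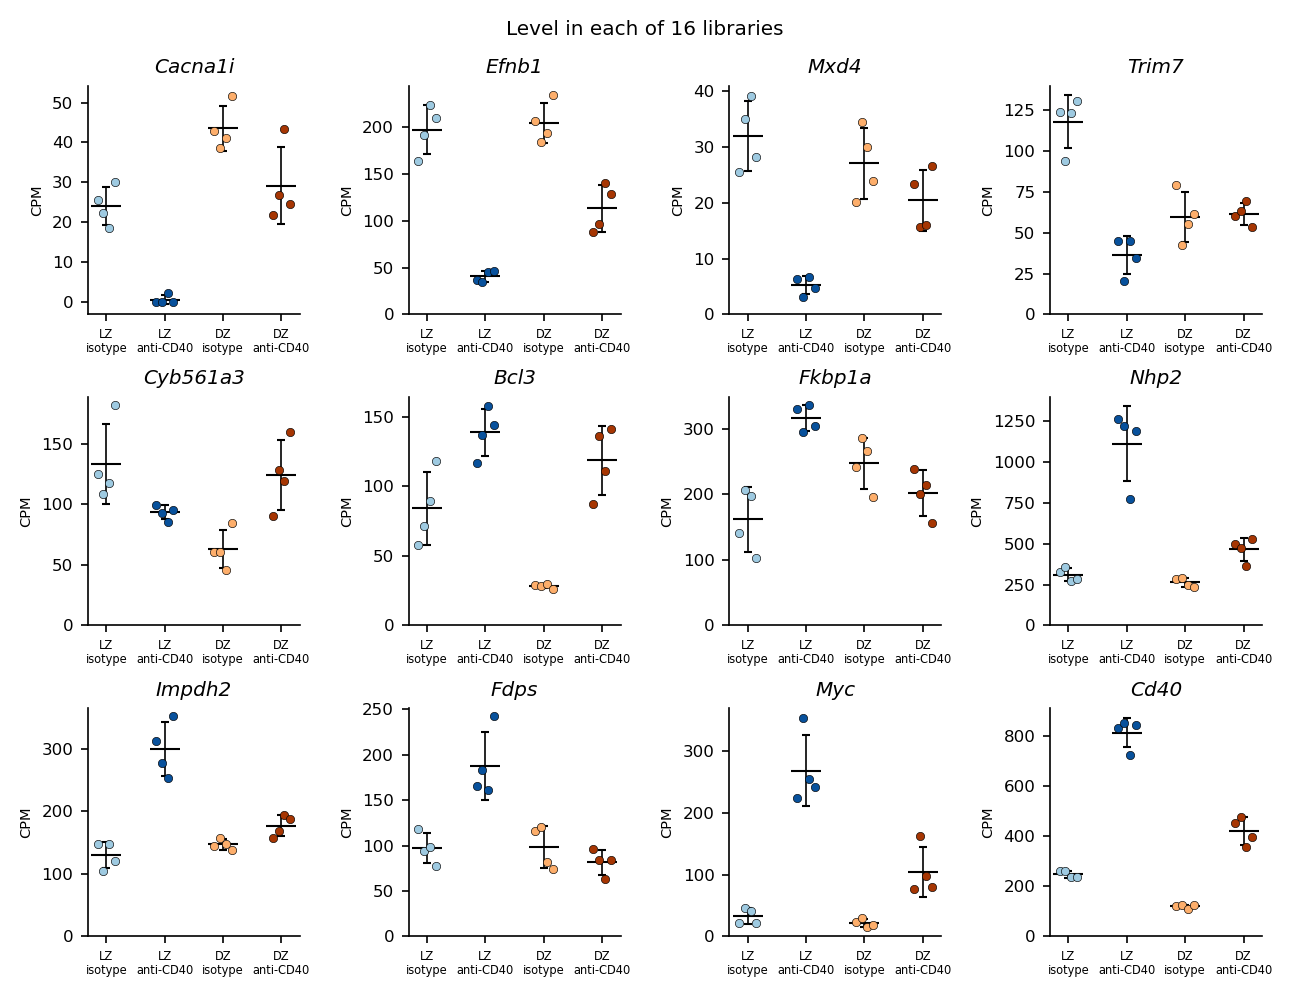
TMM-scaled CPM (y axis, linear) of 12 genes in each of the 16 libraries, by zone and antibody (x axis). Points are libraries, long bars the mean and short bars the SD of 4. Cacna1i is at 0 in 3 of the 4 LZ libraries after anti-CD40. Bcl3 is at 26.4 to 30.0 CPM in the 4 DZ control libraries and at 87.5 to 141 CPM in the treated ones.

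Cd40 itself (chr2:165055627-165072948 on GRCm38) had LZ levels of 261, 259, 235 and 236 CPM under the isotype control and 829, 852, 724 and 844 CPM after anti-CD40. The DZ levels were 122, 125, 111 and 124 CPM and 452, 476, 357 and 395 CPM. Every treated library was above every control library of its zone, and the LZ stood above the DZ in both states. On the log2 scale the difference of changes was -0.09 (SE 0.19, 95% interval -0.48 to 0.29, adjusted p = 0.921), so the interval excludes a difference of 0.5 in either direction. On the linear scale the sign was the opposite, since the gain in the LZ exceeded that in the DZ by 265 CPM. Statements on Cd40 therefore depend on whether the change is taken as a factor or as an amount.

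Each gene list is described by its tested members, from 7 of 15 listed genes for heat shock to 30 of 31 for the proteasome, because the others had too few counts for the filter or have no values here. NF-kB targets, the genes that CD40 is best known to induce, lay evenly on both sides of 0. Of 34 tested members none passed, 2 had the greater and 2 the smaller change in the LZ at an unadjusted p under 0.05, and the median difference was -0.01. In 17 of the 34 (50.0%) the 95% interval lay within 1 log2 unit of 0, against 30.0% of all genes. The mean log2 CPM of the members went from 6.62 ± 0.15 to 7.96 ± 0.06 in the LZ and from 6.04 ± 0.05 to 7.25 ± 0.16 in the DZ. The sign of this median was not stable, at -0.09 to 0.09 when each library was left out in turn and -0.14 without the 4 libraries numbered 4. Nfkbia, which encodes the inhibitor IkB-alpha, was at -0.46, Nfkb2 at -0.19, Irf4, a transcription factor of plasma cell fate, at 0.03, and Bcl2l1, the gene of the survival factor Bcl-xL, at -0.02. These 4 were picked as well known members and none had an unadjusted p under 0.05.

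Bcl3, an atypical IkB protein that binds p50 and p52 dimers in the nucleus, had the smallest p-value of the NF-kB list. Its LZ levels were 57.8, 71.6, 89.5 and 118 CPM under the isotype control and 117, 137, 158 and 144 CPM after anti-CD40, and its DZ levels were 29.1, 28.4, 30.04 and 26.4 CPM and 87.5, 136, 111 and 141 CPM. The DZ control libraries lay close together and far below all others, whereas in the LZ the highest control library was just above the lowest treated one. Bcl3 had a difference of changes of -1.31 (SE 0.31, 95% interval -1.96 to -0.67, adjusted p = 0.202), one of 26 cases at an unadjusted p under 0.05 in which the larger change was a positive one in the DZ. Pim1, a kinase gene induced by CD40, was at 0.61 (SE 0.27, adjusted p = 0.544). Ltb, which encodes lymphotoxin beta, and Gadd45b, a stress response gene, were the other members at an unadjusted p under 0.05, at -0.45 and 0.61, and are named after their values were seen.

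Myc (chr15:61985391-61990374 on GRCm38) had LZ levels of 21.5, 46.2, 41 and 21.2 CPM under the isotype control and 224, 353, 255 and 242 CPM after anti-CD40. In the DZ it was at 23.5, 29.4, 16 and 18.9 CPM and 76.6, 163, 98.1 and 79.9 CPM. The treated libraries were above the control libraries in each zone, and all treated LZ libraries were above all treated DZ libraries. The difference of changes was 0.80 (SE 0.42, 95% interval -0.09 to 1.68, adjusted p = 0.62), with an unadjusted p of 0.0751. In this fit the interval runs from just below 0 to 1.68. It therefore cannot tell an equal factor in both zones from a much greater one in the LZ. Leaving out each library in turn, without a block, gave 0.58 to 1.07. With the library number as a block the difference of changes of Myc was 0.88 (SE 0.29, adjusted p = 0.112 in edgeR). Its unadjusted p was then under 0.05, so the reading of Myc depends on the model, although Myc passed in neither fit.

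Genes of ribosome assembly that Myc is known to induce lay mostly on the side of the greater change in the LZ. Of 52 tested members 48 were positive (50.0% of all genes were), the median was 0.57, and 11 were at an unadjusted p under 0.05 with the greater change in the LZ against none with the smaller. None passed the adjusted test in the main fit. With the library number as a block Nhp2, Imp4 and Emg1 passed, and DESeq2 called Nhp2. The mean log2 CPM of the members went from 5.83 ± 0.20 to 7.17 ± 0.12 in the LZ and from 5.48 ± 0.11 to 6.20 ± 0.21 in the DZ, with no overlap between control and treated libraries in either zone. The median stayed between 0.45 and 0.62 when each library was left out.

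Nhp2, a core protein of the H/ACA small nucleolar RNPs, led that list by p-value. Its LZ levels were 331, 359.7, 272 and 282 CPM and, after anti-CD40, 1268, 1224, 772 and 1194 CPM, and its DZ levels were 285, 289, 248 and 236 CPM and 499, 474, 362 and 528 CPM. All treated libraries were above the controls of their zone, and the lowest treated LZ library was above the highest treated DZ library. Nhp2 had a difference of changes of 1.02 (SE 0.24, 95% interval 0.52 to 1.53, adjusted p = 0.202). Imp4, a protein of the U3 small nucleolar RNP, was at 0.92 (SE 0.27, adjusted p = 0.303). The other 9 members at an unadjusted p under 0.05 were Nle1, Dkc1, Pes1, Wdr74, Polr1c, Ftsj3, Rrp9, Emg1 and Mrto4.

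Nucleotide and polyamine synthesis, a further group of Myc-driven genes, lay in the same direction, with 25 of 30 members positive and a median of 0.46. At an unadjusted p under 0.05 there were 6 against 0. The first of such a pair of counts is always of genes with the greater change in the LZ and the second of genes with the smaller one. Over all genes tested these shares were 3.80% and 4.79%, which is the background for each such pair. Impdh2 encodes the rate-limiting enzyme of guanine nucleotide synthesis. In LZ libraries Impdh2 was at 148, 105, 147 and 119.9 CPM under the isotype control and 313, 278, 254 and 353 CPM after anti-CD40. In the DZ it was at 144, 158, 148 and 138 CPM and 158, 169, 195 and 188 CPM. The LZ groups were far apart, and the DZ groups met at their edges. Between zones the change of Impdh2 differed by 0.94 (SE 0.22, 95% interval 0.47 to 1.40, adjusted p = 0.202). Shmt2, the mitochondrial enzyme that feeds one-carbon units into this pathway, went from 246 ± 7.65 to 716 ± 174 CPM in the LZ and from 249 ± 20.2 to 385 ± 56.1 CPM in the DZ, a difference of 0.91 (SE 0.24, adjusted p = 0.242).

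The promoter windows of 3 of these genes are shown because they bear on Myc and its competitors: the called gene, the Myc competitor Mxd4 and the growth gene Impdh2. Each window runs from 250 bases before to 50 bases after the gene start in RefSeq (GRCm38.p6) and is written 5′ to 3′ on the gene's strand. It lies at chr15:80286988-80287287 on the plus strand for Cacna1i, at chr5:34187661-34187960 on the minus strand for Mxd4, and at chr9:108560186-108560485 on the plus strand for Impdh2. Capitals mark CACGTG, the E-box bound by dimers of Max, which reads the same on both strands.
Cacna1i: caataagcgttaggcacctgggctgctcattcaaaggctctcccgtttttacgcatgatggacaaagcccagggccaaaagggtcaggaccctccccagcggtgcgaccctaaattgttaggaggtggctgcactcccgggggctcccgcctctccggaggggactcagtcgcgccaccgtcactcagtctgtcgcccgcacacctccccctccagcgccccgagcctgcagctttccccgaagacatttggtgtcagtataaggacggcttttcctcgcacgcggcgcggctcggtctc
Mxd4: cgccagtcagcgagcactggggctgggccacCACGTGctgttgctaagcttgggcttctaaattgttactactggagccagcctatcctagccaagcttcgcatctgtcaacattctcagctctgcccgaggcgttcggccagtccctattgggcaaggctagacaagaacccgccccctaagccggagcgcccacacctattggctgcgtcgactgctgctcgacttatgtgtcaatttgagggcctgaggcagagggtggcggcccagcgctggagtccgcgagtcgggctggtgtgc
Impdh2: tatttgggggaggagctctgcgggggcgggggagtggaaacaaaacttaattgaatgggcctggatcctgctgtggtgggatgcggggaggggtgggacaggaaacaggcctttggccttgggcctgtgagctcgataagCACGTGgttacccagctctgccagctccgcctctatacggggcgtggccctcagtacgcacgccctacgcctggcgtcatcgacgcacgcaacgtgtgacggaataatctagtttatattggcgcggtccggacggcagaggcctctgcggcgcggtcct
The E-box begins at base 32 of the window in Mxd4 and at base 141 in Impdh2, and the Cacna1i window has none.

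Over all tested genes with a RefSeq promoter, 723 of 5596 windows (12.9%) held CACGTG. It was found in 14 of 45 windows of the ribosome assembly list (31.1%), in 6 of 26 of the nucleotide and polyamine list (23.1%) and in 0 of 17 of the DZ markers. Among genes at an unadjusted p under 0.05 it was in 41 of 217 with the greater change in the LZ (18.9%) and in 31 of 273 with the smaller one (11.4%). The NF-kB motif GGGNNTTTCC, searched on both strands, was in 7 of 29 windows of the NF-kB targets (24.1%), whose differences centred on 0, and in 112 of all 5596 (2.0%). In the windows of genes at an unadjusted p under 0.05 it was in 1 of 217 and 7 of 273, respectively. These are counts of letters in windows and not of sites occupied by a factor.

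Genes of translation and protein folding lay mostly on the same side. Translation factors had a median of 0.49 with 22 of 24 positive, aminoacyl tRNA synthetases 0.35 with 16 of 18 positive, and chaperonins 0.44 with 14 of 15 positive. At an unadjusted p under 0.05 there were 1, 2 and 5 members, all with the greater change in the LZ, against 3.80% of all genes tested. The 1 of 24 translation factors is near that share. Eef1e1, a scaffold protein of the synthetase complex, was at 1.38 (SE 0.61, adjusted p = 0.537), and Eif6, which keeps the 60S subunit apart from the 40S, at 0.59 (SE 0.28, adjusted p = 0.573). Of the synthetases, Gars, for glycine, was at 0.63 (SE 0.23, adjusted p = 0.409) and Yars, for tyrosine, at 0.80 (SE 0.38, adjusted p = 0.573). Cct3 and Cct6a are subunits of the TRiC chaperonin, which folds actin and tubulin. Cct3 went from 265 ± 39.9 to 582 ± 74 CPM in the LZ and from 305 ± 9.36 to 387 ± 42.8 CPM in the DZ, a difference of 0.78 (SE 0.21, adjusted p = 0.242), and Cct6a was at 0.85 (SE 0.26, adjusted p = 0.303).

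The proteasome had a median of 0.29 with 26 of 30 members positive and 4 against 0 at an unadjusted p under 0.05. Psme3, an activator of the nuclear proteasome, was at 0.97 (SE 0.26, adjusted p = 0.242), and Psmb5, a catalytic subunit, at 0.91 (SE 0.29, adjusted p = 0.346). Genes of the mitochondrial ribosome and of import had a median of 0.44 with 22 of 24 positive and 6 against 0. Mrpl12, a protein of the large mitochondrial ribosomal subunit, went from 251 ± 29.7 to 512 ± 56.6 CPM in the LZ and from 248 ± 35.9 to 304 ± 31.1 CPM in the DZ, a difference of 0.73 (SE 0.21, adjusted p = 0.303). Phb2, a prohibitin of the inner membrane, was at 0.64 (SE 0.22, adjusted p = 0.378). The median of oxidative phosphorylation was lower, at 0.18 (0.04 to 0.23 when each library was left out), with 29 of 36 positive and 1 against 0, and 30 of its 36 intervals (83.3%) lay within 1 log2 unit of 0. Cox5a, of complex IV, was at 0.76 (SE 0.34, adjusted p = 0.551), and Atp5b, of the ATP synthase, at 0.38 (SE 0.19, adjusted p = 0.608).

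Cholesterol synthesis had the highest median of the 29 lists, 0.73, with 15 of 17 members positive and 4 against 0 at an unadjusted p under 0.05. The median was lower, at 0.52 to 0.72, when each library was left out, and 0.61 without the 4 libraries numbered 4. Fdps encodes farnesyl diphosphate synthase, which makes the precursor of sterols and of protein prenylation. In LZ libraries Fdps was at 118, 93.9, 98.8 and 77.6 CPM under the isotype control and 165, 183, 161 and 242 CPM after anti-CD40, and in the DZ at 116, 121, 82.1 and 74.2 CPM and 96.1, 84, 62.7 and 84 CPM. LZ groups were separate and DZ groups overlapped. Fdps had a difference of changes of 1.21 (SE 0.29, 95% interval 0.59 to 1.82, adjusted p = 0.225). The mean log2 CPM of the list went from 5.23 ± 0.28 to 5.87 ± 0.24 in the LZ and from 4.93 ± 0.20 to 4.88 ± 0.10 in the DZ. Glycolysis, by contrast, had a median of 0.10 whose sign was not stable (-0.05 to 0.38 over the fits that left out 1 library). Its member Ldha, lactate dehydrogenase, went from 643 ± 69 to 1086 ± 114 CPM in the LZ and from 579 ± 85.6 to 552 ± 57.7 CPM in the DZ, a difference of 0.83 (SE 0.20, adjusted p = 0.225), while the triosephosphate isomerase gene Tpi1 was at 0.53 (SE 0.33, adjusted p = 0.691).

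**Figure D3:**
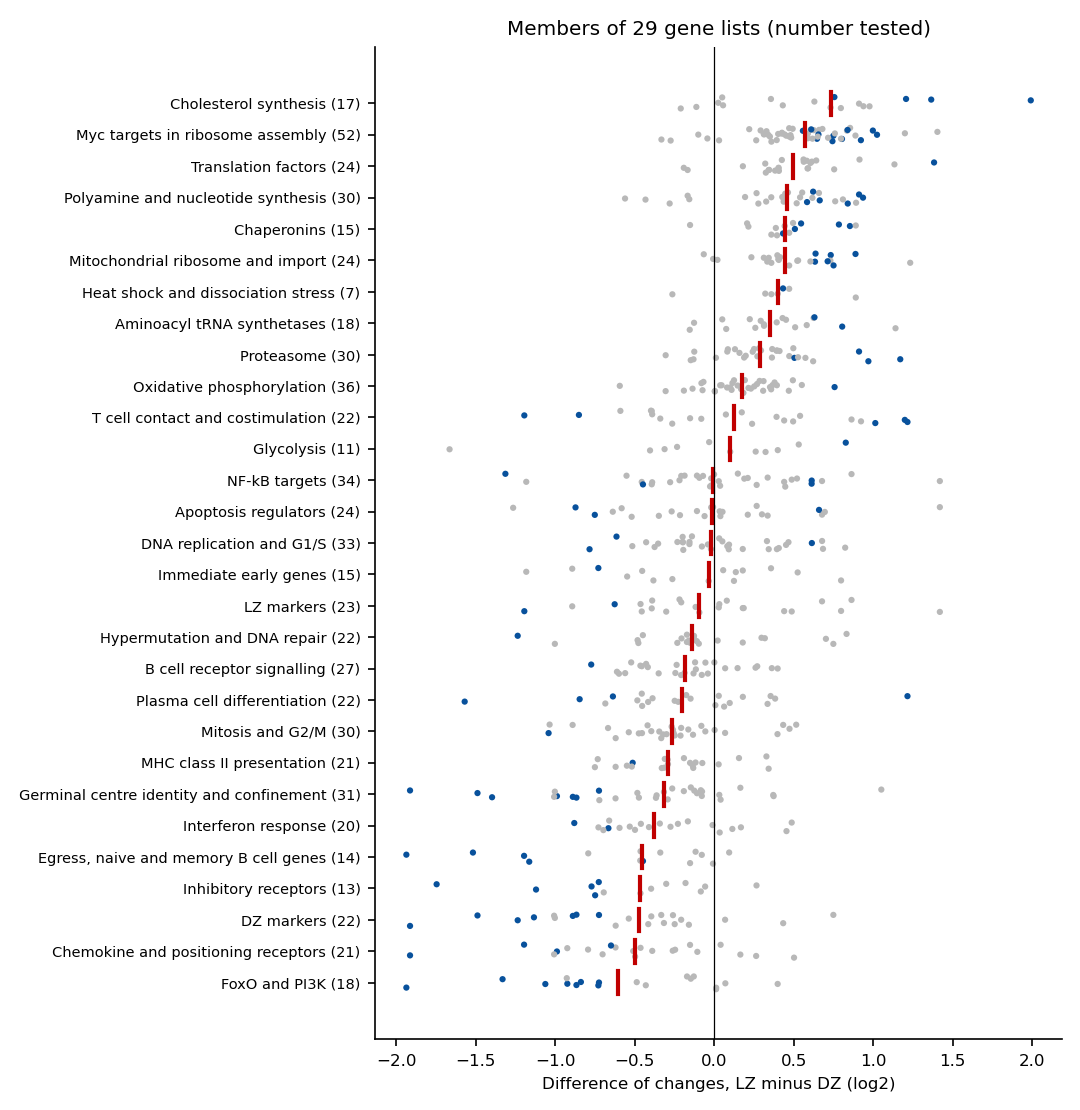
Difference of changes (x axis, log2, LZ minus DZ) of every tested member of 29 gene lists (y axis, number tested in parentheses). Blue points have an unadjusted p under 0.05, and red bars are medians. Medians run from 0.73 for cholesterol synthesis to -0.61 for FoxO and PI3K, with NF-kB targets at -0.01.

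Genes that mark the DZ lay in the opposite direction. Of 22 tested DZ markers 19 were negative, the median was -0.48, and 0 against 7 members were at an unadjusted p under 0.05. The mean log2 CPM of the list went from 6.38 ± 0.16 to 5.54 ± 0.13 in the LZ and from 6.82 ± 0.08 to 6.48 ± 0.15 in the DZ. Hmces, which shields abasic sites in single-stranded DNA, went from 411 ± 105 to 112 ± 37.1 CPM in the LZ and from 1099.7 ± 144 to 712 ± 164 CPM in the DZ, a difference of -1.24 (SE 0.33, adjusted p = 0.242). Its loss in CPM was nevertheless larger in the DZ, by 89.0 CPM, so the sign depends on the scale. Mybl1, which encodes the transcription factor A-Myb, was at -1.49 (SE 0.45, adjusted p = 0.303). Foxo1, the factor on which the DZ depends, was at -0.73 (SE 0.24, adjusted p = 0.371) and Cxcr4, the receptor that holds cells in the DZ, at -1.91 (SE 0.66, adjusted p = 0.381), both named after their values were seen. Cxcr4 went from 177 ± 141 to 52 ± 18.5 CPM in the LZ and from 233 ± 104 to 263 ± 156 CPM in the DZ.

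The wider list of germinal centre identity and confinement genes, in which Mybl1, Foxo1, Cxcr4, Bach2, Gcsam and others are also DZ markers, had 25 of 31 negative, a median of -0.32 (-0.48 to -0.27 when each library was left out) and 0 against 7 at an unadjusted p under 0.05. Efnb1, described above, led it. S1pr2 encodes the sphingosine-1-phosphate receptor that confines cells to the germinal centre. In LZ libraries S1pr2 was at 396, 454, 494 and 455 CPM under the isotype control and 157, 110.4, 149 and 74.4 CPM after anti-CD40, and in the DZ at 511, 509, 659 and 497 CPM and 290.0, 281, 333 and 281 CPM. Control and treated groups were apart in both zones, and every treated LZ library was below every treated DZ library. S1pr2 had a difference of changes of -0.99 (SE 0.26, 95% interval -1.54 to -0.44, adjusted p = 0.242). Bcl6, the master regulator of the germinal centre, was at -0.15 with an interval of -1.37 to 1.08, too wide to place it.

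Genes of egress and of naive and memory B cells had 13 of 14 negative, a median of -0.46 and 0 against 5 at an unadjusted p under 0.05. Klf2 encodes the transcription factor that induces the egress receptor S1pr1. Its LZ levels were 51.1, 65.2, 61.5 and 74.1 CPM and, after anti-CD40, 11.2, 6.31, 14.7 and 3.17 CPM, and its DZ levels were 30.5, 23.3, 22 and 18.9 CPM and 13.3, 14.3, 22.5 and 2.05 CPM. The groups were apart in the LZ and overlapped in the DZ, where the control level was the lower one. For Klf2 the difference of changes was -1.94 (SE 0.56, 95% interval -3.11 to -0.77, adjusted p = 0.303). S1pr4, a further sphingosine-1-phosphate receptor, was at -1.20 (SE 0.38, adjusted p = 0.34). Chemokine and positioning receptors, a list that shares S1pr2, S1pr4, Cxcr4 and others with those above, had 17 of 21 negative, a median of -0.50 and 0 against 4.

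The FoxO and PI3K list had the lowest median of the 29 lists, -0.61, with 14 of 18 members negative and 0 against 8 at an unadjusted p under 0.05. The 8 were Klf2, Trib2, Foxo1, Btg2, Sesn1, Pik3cg, Tsc22d3 and Bach2, of which Klf2, Sesn1 and Tsc22d3 are known FoxO targets and Pik3cg is a PI3K subunit. The list overlaps others: Klf2 is also in the egress list, Foxo1 and Bach2 are also DZ markers, and Btg2 is also an immediate early gene. Trib2, a pseudokinase gene, went from 64.1 ± 13.6 to 21.7 ± 7.21 CPM in the LZ and from 68.2 ± 15.9 to 60.6 ± 17.6 CPM in the DZ, a difference of -1.33 (SE 0.39, adjusted p = 0.303). Btg2, an antiproliferative gene, was at -0.73 (SE 0.25, adjusted p = 0.381). The mean log2 CPM of the list went from 5.80 ± 0.10 to 5.0 ± 0.16 in the LZ and from 5.96 ± 0.02 to 5.67 ± 0.12 in the DZ, and no treated library of either zone reached a control library of that zone.

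**Figure D4:**
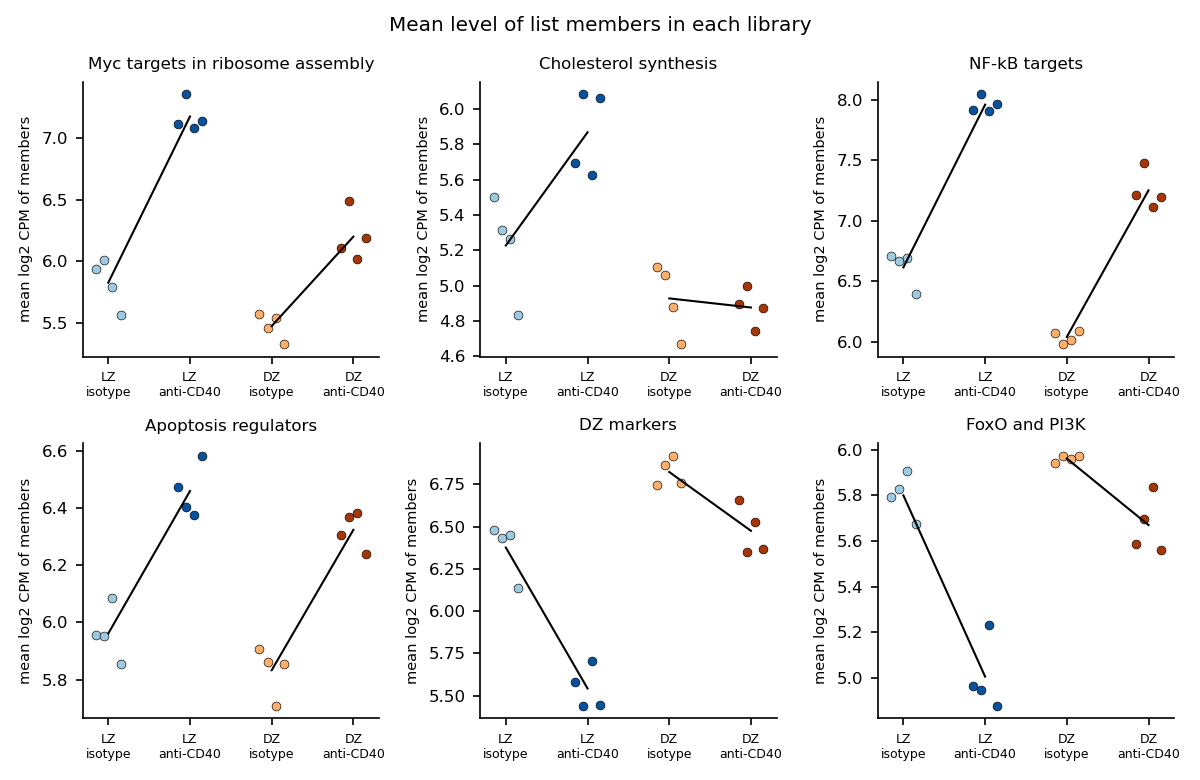
Mean log2 CPM of the tested members of 6 lists (y axis, prior count 2, range set per panel) in each library, by zone and antibody (x axis). Lines join group means, so that unequal slopes are the difference of changes. NF-kB targets go from 6.62 to 7.96 in the LZ and from 6.04 to 7.25 in the DZ, nearly parallel, while the DZ markers go from 6.38 to 5.54 and from 6.82 to 6.48.

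Inhibitory receptors of B cells and their adaptors had 12 of 13 negative, a median of -0.46 and 0 against 5 at an unadjusted p under 0.05. Pecam1 encodes CD31, an adhesion receptor with inhibitory motifs, and is also listed among markers of stromal cells. It had LZ levels of 69.9, 43, 78.3 and 93.5 CPM under the isotype control and 22.4, 18.9, 15.8 and 19 CPM after anti-CD40, and DZ levels of 35.3, 30.4, 27 and 54.1 CPM and 32.8, 29.9, 43.4 and 24.6 CPM. Treated LZ libraries were all below the controls, while the DZ groups overlapped. Pecam1 had a difference of changes of -1.75 (SE 0.40, 95% interval -2.59 to -0.90, adjusted p = 0.202). Dok3, an adaptor that dampens B cell receptor signals, was at -1.12 (SE 0.29, adjusted p = 0.242). The other 3 were Cd22, Siglecg and Btla, at -0.75, -0.77 and -0.73. B cell receptor signalling components lay nearer to 0, with 20 of 27 negative, a median of -0.19 (-0.33 to -0.15 when each library was left out) and 0 against 1. In that list Nfatc1, a transcription factor downstream of calcium, was at -0.77 (SE 0.27, adjusted p = 0.396).

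Genes for contact with T cells lay on both sides of 0. Of 22 costimulation and adhesion genes 12 were positive, the median was 0.12 (-0.03 to 0.14 when each library was left out), and 3 had the greater and 2 the smaller change in the LZ at an unadjusted p under 0.05. Icosl, the ligand of ICOS on T cells, had LZ levels of 142, 109.8, 207 and 314 CPM under the isotype control and 131, 106, 122 and 136 CPM after anti-CD40, and DZ levels of 144, 117, 102 and 185 CPM and 111, 175, 233 and 297 CPM. Groups overlapped in both zones and the control LZ libraries spread widely. For Icosl the difference of changes was -1.20 (SE 0.43, 95% interval -2.09 to -0.30, adjusted p = 0.404). Cd44, a hyaluronan receptor, was at 1.20 (SE 0.45, adjusted p = 0.45), and Slamf7, a homotypic receptor of the SLAM family, at 1.22 (SE 0.51, adjusted p = 0.499). Tnfsf9, the ligand of 4-1BB, went from 31.7 ± 7.86 to 291 ± 68.6 CPM in the LZ and from 16.5 ± 4.87 to 75.9 ± 39.1 CPM in the DZ, a difference of 1.01 (SE 0.47, adjusted p = 0.568), and is named after its values were seen.

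The 23 LZ markers, many of which CD40 induces, had a median of -0.09 (-0.21 to -0.07 when each library was left out) with 11 positive and 0 against 2 at an unadjusted p under 0.05, namely Icosl and Cd52. Cd52, which encodes a small surface glycoprotein of lymphocytes, was at -0.63 (SE 0.27, adjusted p = 0.522). For antigen presentation by MHC class II, 17 of 21 genes were negative, with a median of -0.29 (-0.36 to -0.13 when each library was left out) and 0 against 1. H2-DMb1, a subunit of the peptide exchanger H2-M, was at -0.51 (SE 0.22, adjusted p = 0.522) and H2-Oa, a subunit of its inhibitor H2-O, at -0.55 (SE 0.27, adjusted p = 0.596). The low affinity IgE receptor gene Fcer2a, a marker of naive B cells, was at -0.12 (SE 0.20, adjusted p = 0.908), but by amount its gain was 689 CPM larger in the LZ.

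Apoptosis regulators had a median of -0.01 (-0.10 to 0.02 when each library was left out), with 1 against 2 at an unadjusted p under 0.05. The anti-apoptotic gene Mcl1 went from 287 ± 58.7 to 200.5 ± 36.9 CPM in the LZ and from 305 ± 29.9 to 361 ± 47.9 CPM in the DZ, a difference of -0.75 (SE 0.24, adjusted p = 0.353). The pro-apoptotic gene Bax was at 0.66 (SE 0.27, adjusted p = 0.468) and Bmf, a further pro-apoptotic gene, at -0.87. Survival and death genes were thus on both sides.

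The cell cycle lists differed in their medians. DNA replication and G1/S had a median of -0.02 (-0.13 to 0.09 when each library was left out, and 0.08 without the 4 libraries numbered 4) and 1 against 2 at an unadjusted p under 0.05. Cdk4, the kinase that cyclin D activates, was at 0.61 (SE 0.23, adjusted p = 0.45) and Tk1, thymidine kinase, at -0.78 (SE 0.23, adjusted p = 0.303). Mitosis and G2/M had 24 of 30 negative, a median of -0.26 and 0 against 1. Cenpe, a kinetochore motor, was at -1.04 (SE 0.36, adjusted p = 0.395) and Prc1, a crosslinker of the central spindle, at -1.04 (SE 0.50, adjusted p = 0.573). Immediate early genes, which include Myc and Btg2, had a median of -0.04 (-0.21 to 0.05 when each library was left out).

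**Figure D5:**
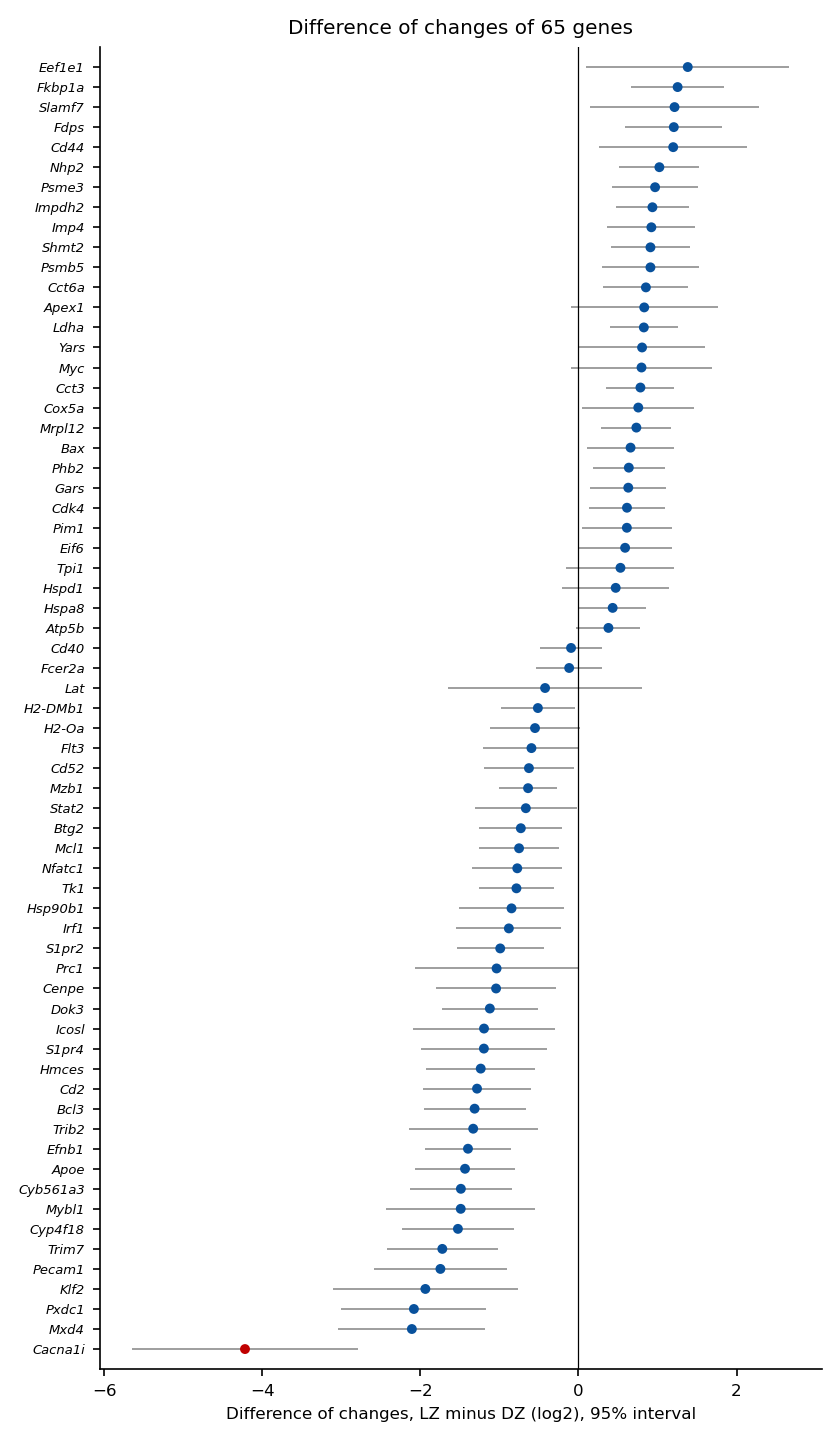
Difference of changes (x axis, log2, LZ minus DZ) with its 95% interval from edgeR for 65 genes (y axis). The genes were picked by the naming rule or were next by p-value. Cacna1i, in red at -4.22, is the single one that passed, and genes of growth such as Nhp2 (1.02) and Impdh2 (0.94) lie to the right of 0 and germinal centre genes such as S1pr2 (-0.99) to the left.

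Markers of other cell types were looked up because Pecam1, Cd2 and Apoe are also such markers. Of 15 T cell markers 2, Cd2 and Lat, have values here, and the others, Cd3e and Trac among them, have none. Their summed level, in CPM of the library total, ranged from 105 to 149 and from 24.8 to 40.9 in LZ control and treated libraries, and from 208 to 243 and from 93.3 to 195 in the DZ. Cd2 made up most of it and had a difference of -1.28 (SE 0.33, adjusted p = 0.242), although its loss in CPM was 1.55 larger in the DZ, while Lat was at -0.42 (SE 0.59, adjusted p = 0.882).

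Of 19 myeloid and dendritic cell markers 5 have values, and Csf1r, Itgam and Adgre1 are among those with none. Apoe, the apolipoprotein E gene, made up most of their sum, which ranged from 2007 to 2167 and from 466 to 860 CPM in the LZ and from 2164 to 2652 and from 1417 to 2011 CPM in the DZ. Lyz2 and Tyrobp were at 2.17 to 7.80 CPM as group means. Apoe had LZ levels of 1688, 1545, 1555 and 1610.2 CPM and, after anti-CD40, 637, 312, 500.5 and 264 CPM, and DZ levels of 1922, 1608, 1542 and 1516 CPM and 1496, 1039, 1253 and 987 CPM. The groups were apart in both zones and the treated LZ libraries were the lowest of all. The difference of changes was -1.44 (SE 0.30, 95% interval -2.07 to -0.80, adjusted p = 0.136), and without anti-CD40 LZ library 1 it was -1.73 with an adjusted p of 0.0405. The growth factor receptor gene Flt3 was at -0.59 (SE 0.29, adjusted p = 0.585).

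Of 15 stromal and follicular dendritic cell markers 4 have values, with Pecam1 as the main one, and Col1a1, Pdpn and Cxcl13 are among those with none. Their sum ranged from 48.1 to 189 and from 30.6 to 38.5 CPM in the LZ and from 34.0 to 65.1 and from 35.8 to 57.3 CPM in the DZ. None of 10 red cell and platelet markers has values. The T cell and myeloid sums were thus lower after anti-CD40 in both zones with no overlap, and the stromal sum was lower in the LZ. Each of these sums rests mainly on a single gene, Cd2, Apoe or Pecam1, and Pecam1 is also in the list of inhibitory receptors. The members of the sums did not all lie in that direction. In the LZ the group mean went from 0.474 to 10.3 CPM for Madcam1, from 4.618 to 5.997 CPM for Lyz2 and from 5.48 to 5.69 CPM for Tyrobp. The 6 plasma cell markers with values summed to 1741 to 2167 and 1165 to 1490 CPM in LZ control and treated libraries and to 2503 to 3206 and 2460 to 3156 CPM in the DZ. In the LZ, Mzb1, Jchain and Xbp1 had lower group means after anti-CD40. Derl3 (48.0 to 68.0 CPM), Slamf7 (13.9 to 42.4 CPM) and Sdc1 (4.01 to 4.98 CPM) had higher ones. The 9 naive and memory B cell markers with values, mostly Fcer2a, summed to 641 to 778 and 1533 to 1681 CPM in the LZ. In the DZ they summed to 211 to 294 and 602 to 852 CPM. Of these markers, Klf2, Cd38 and Hhex were lower in the LZ after anti-CD40. The part of other cells in the differences of changes was not tested. Cd79b, a defining B cell gene of the antigen receptor complex, was the highest of the germinal centre B cell markers in each group. The sum of these markers ranged from 5789 to 8034 and from 4641 to 5858 CPM in the LZ and from 7445 to 9231 and from 6925 to 8469 CPM in the DZ, so that control and treated libraries overlapped in both zones.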

How the data were processed

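RNA of 16 libraries was measured by 3′ end sequencing, with a barcode and a UMI for each sample set at reverse transcription before pooling and linear amplification, per the labels' protocols. The authors deposited raw UMI counts per gene, which were used for every result. The submitters' processing notes name cutadapt, STAR, HTSeq, DESeq2 and the build mm10, without versions, and the step that each was used for is not given in the sources used here. Another 32 per-sample columns of the deposited table, which are not raw counts, were not used. Samples were grouped by their titles.

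Counts of 9443 genes were filtered with filterByExpr (minimum count 10), which kept 6824 genes holding 98.6% of UMI. In edgeR 4.0.16 (R 4.3.3), libraries were scaled with TMM factors, 1 mean per group was estimated from all 16 libraries, with robust quasi-likelihood dispersions (common biological coefficient of variation 24.6%), and 1 contrast, the difference of the LZ and DZ changes, was tested with Benjamini-Hochberg adjustment at 0.05. Standard errors were the log2 difference divided by the root of its F statistic, and 95% intervals used the t quantile of the gene's degrees of freedom. Levels of lists are means of log2 CPM (prior count 2). The script was tested on 20 simulated sets with 200 changed genes, and 4.02% of calls (0 to 7.37%) were false.

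Members and lists were chosen with earlier results of these data known. The rule named up to 12 called genes in each direction with at least 20 CPM in the highest group, Myc and Cd40, and the 2 members of each list with the smallest p where none passed. The 8 genes with an adjusted p under 0.20 and genes so marked were named after their values were seen. Single results of a few genes are not reported here. Lists are described by counts and medians, without a test. Gene positions are from GENCODE vM21 (GRCm38) and promoters from RefSeq (GRCm38.p6), which matched 5596 of the 6824 genes.

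Alternatives were RLE and upper quartile factors, DESeq2 1.42.0, limma-voom (limma 3.58.1), no filter, a stricter filter (20 counts in 4 libraries), a block for the replicate number, omission of each library, the 4 libraries numbered 4 left out, and an adjusted p under 0.10. The CPM scale, an unadjusted p under 0.05 and medians of lists without single libraries were added after seeing the data. Python 3.11.15 with NumPy 2.4.6, pandas 2.3.3 and Matplotlib 3.10.9 was used for motifs and figures.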

Additional observations from a re-analysis of the deposited data

Results flagged for a closer look

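Cacna1i was the single gene that passed the test of the difference itself in the main fit, at -4.22 on the log2 scale. In 80 sets of 4 library values (genes shown by library and library totals), 4 had 1 library far from the other 3. That total is no more than the rate of about 1 in 20 that chance alone gives. The total does not bear on how the flags are spread over the libraries, which was not tested. Of the 4, 3 were of anti-CD40 LZ library 3. It held 914975 UMI, the highest total of its group, and had the lowest level of Nhp2 in its group (772 CPM). Its Cacna1i value (2.25 CPM) rests on 2 UMI. With the rest of that group at 0, any count above 0 would have been flagged. Isotype DZ library 3 had the highest level of S1pr2 in its group (659 CPM). Without anti-CD40 LZ library 3 the test called 2 genes, Cacna1i and Pxdc1.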

How the results depend on the processing

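The test called 1 gene with TMM or RLE factors, limma-voom, no filter, the stricter filter or an adjusted p under 0.10, and that gene was Cacna1i each time. It called 2 with upper quartile factors (Cacna1i and Efnb1), which moved the median of all genes to -0.06, 37 with DESeq2 and 0 to 2 when each library was left out. Without the 4 libraries numbered 4, edgeR called 0, with 683 genes at an unadjusted p under 0.05 (586 with all 16 libraries) and Cacna1i at -3.95 with an adjusted p of 0.0922. DESeq2 gave 3440 of the 6824 genes no adjusted p, so that its adjustment covered only the others. All 37 of its calls had the same sign in edgeR, and 34 were also called with the block below. Among those 34 were Nhp2, Impdh2, Shmt2, Fdps, Ldha, Cct3, Mrpl12, S1pr2, Dok3, Bcl3, Cd2 and Mzb1, which did not pass in the main fit. The replicate number as a block gave 107 calls, 39 with the greater and 68 with the smaller change in the LZ, among them all 8 genes with an adjusted p of 0.05 to 0.20 without it. The rule used took the numbers to pair the samples only if every same-number pair of libraries had a correlation of deviations over 0.1. Of 24 such pairs 18 did (range -0.21 to 0.66), so the main fit had no block. The mean correlation was 0.58 for number 4 and 0.383 for number 1, but 0.184 for number 2 and 0.0495 for number 3. Of 16 libraries 10 correlated best with their own number, a hint from the data and not from the design. The interferon response genes, given below, were also highest in number 1 and lowest in number 4 in each group. Whether libraries of one number share a source is not in the labels and was not tested. In the fit without the block, any effect shared by libraries of one number counts as spread between libraries. Myc stayed positive and Cd40 negative on the log2 scale in each of these fits, without a call. As amounts in CPM, 4 of 67 genes changed sign, namely Cd40 (265), Cd2 (1.55), Hmces (89.0) and Fcer2a (689). Medians that changed sign when each library was left out ranged from -0.0925 to 0.0854 for NF-kB targets (-0.143 without the libraries numbered 4), -0.0457 to 0.375 for glycolysis, -0.129 to 0.0864 for G1/S (0.0760 without the libraries numbered 4), -0.105 to 0.0168 for apoptosis, -0.0284 to 0.143 for costimulation and -0.212 to 0.0518 for immediate early genes. The other 23 medians kept their sign. The cause of these shifts was not tested. In the simulated data, which held no effect of the number, the test without the block missed most differences of 2-fold. What the test with the block would recover was not tested.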

Other observations

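A few gene groups outside the comparisons above were measured in the same fit, and no member of them passed. Plasma cell differentiation had a median difference of changes of -0.20 (-0.32 to -0.15 when each library was left out), with 13 of 22 members negative and 1 against 3 at an unadjusted p under 0.05. Its member Mzb1, a chaperone of antibody secretion, went from 1379 ± 171 to 864 ± 66.3 CPM in the LZ and from 2006 ± 121 to 1956 ± 114 CPM in the DZ, a difference of -0.64 (SE 0.18, adjusted p = 0.303 in edgeR). Hsp90b1, an endoplasmic reticulum chaperone of the same list, was at -0.85 (SE 0.32, adjusted p = 0.454 in edgeR). Somatic hypermutation and DNA repair genes had a median of -0.14 (-0.27 to -0.05 when each library was left out), with the abasic endonuclease gene Apex1 at 0.83 and Hmces at -1.24.

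Interferon response genes had 15 of 20 negative, a median of -0.38 (-0.56 to -0.21 when each library was left out) and 0 against 2 at an unadjusted p under 0.05. In each of the 4 groups their mean log2 CPM was highest in the library numbered 1 and lowest in that numbered 4, at 6.26 and 5.38 in LZ controls, 6.46 and 5.57 in treated LZ, 5.88 and 5.25 in DZ controls and 6.37 and 5.38 in treated DZ libraries. Irf1, a transcription factor induced by interferon, went from 92.8 ± 25.8 to 97.8 ± 25.9 CPM in the LZ and from 57.4 ± 7.28 to 111 ± 13.8 CPM in the DZ, a difference of -0.88 (SE 0.32, adjusted p = 0.408 in edgeR). Stat2 was at -0.67. Of 7 genes of heat shock and dissociation stress 6 were positive, with a median of 0.40. Among them Hspa8 was at 0.43 and Hspd1, a mitochondrial chaperonin, at 0.47.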
